A study of Mus musculus with 4 samples.

Results

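Chemokines are small secreted proteins that attract leukocytes and other cells, and 9 of the 24328 rows of the expression table are described here: the ligands Ccl2, Ccl7, Ccl11, Cxcl1, Cxcl2, Cxcl10, Cxcl12 and Cxcl14 and the receptor Cxcr4. They were taken by gene symbol, from a list chosen with earlier results of these data known, and all 9 symbols were in the table. Polyadenylated RNA had been sequenced from muscle stem cells (satellite cells, the stem cells that lie along muscle fibres), sorted from mice perfused with paraformaldehyde, which fixes the cells inside the animal. The YFP group (2 libraries) came from Pax7CreERT2/+; ROSA26YFP/+ mice aged 7 months, and the DEK group (2 libraries) from Pax7CreERT2/+; H11DEK-EGFP/+ mice aged 4.5 months. Both groups thus carried 1 copy of the Pax7-driven, tamoxifen-inducible Cre and a fluorescent marker, at ROSA26 in one and at H11 in the other. Age, marker, locus and the transgene for Dek, a DNA-binding chromatin protein, went together and cannot be told apart. The labels give neither the tamoxifen schedule nor the number of mice behind a library, so every p-value rests on the spread among 4 libraries, which may be technical. The series title calls the cells Dek over-expressed and quiescent, and the comparison asked how their RNA differs from that of YFP cells.

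CC and CXC chemokines are named for their conserved cysteines, which are adjacent in the first and separated by another residue in the second. They signal through G protein-coupled receptors coupled to inhibitory G proteins, while atypical receptors bind and remove ligand without that signal. Many are inflammatory genes switched on through NF-kB or interferon, whereas Cxcl12 is made steadily by stromal cells and holds stem and blood cells in their niches through Cxcr4. In muscle, injury is followed by the arrival of neutrophils and then monocytes, which Cxcl1 and Cxcl2 and then Ccl2 and Ccl7 are known to attract.

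The bases before the start are shown for Cxcl1 and Cxcl2, ligands of 1 receptor that have a stretch of sequence in common there, for the interferon-induced Cxcl10 and for Cxcl12, the most abundant member in YFP. RefSeq's promoter table (build GRCm38.p6) matched 6 of the 9 genes by symbol; Ccl2, Ccl7 and Ccl11 were not matched. Each line runs 5′ to 3′ on the gene's strand and holds the 250 bases before the start, at chr5:90890995-90891244 (plus strand) for Cxcl1, chr5:90903649-90903898 (plus) for Cxcl2, chr5:92348890-92349139 (minus) for Cxcl10 and chr6:117168285-117168534 (plus) for Cxcl12. Capitals mark matches to the motifs described after the lines.
Cxcl1: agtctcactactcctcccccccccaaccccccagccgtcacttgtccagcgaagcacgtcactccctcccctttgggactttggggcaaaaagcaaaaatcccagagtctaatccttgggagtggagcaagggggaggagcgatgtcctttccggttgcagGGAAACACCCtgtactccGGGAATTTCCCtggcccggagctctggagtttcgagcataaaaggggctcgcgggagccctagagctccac
Cxcl2: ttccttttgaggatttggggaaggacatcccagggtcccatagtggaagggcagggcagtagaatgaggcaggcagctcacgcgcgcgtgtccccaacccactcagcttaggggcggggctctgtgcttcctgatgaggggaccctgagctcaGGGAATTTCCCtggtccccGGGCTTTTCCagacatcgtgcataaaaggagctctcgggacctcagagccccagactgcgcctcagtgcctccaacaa
Cxcl10: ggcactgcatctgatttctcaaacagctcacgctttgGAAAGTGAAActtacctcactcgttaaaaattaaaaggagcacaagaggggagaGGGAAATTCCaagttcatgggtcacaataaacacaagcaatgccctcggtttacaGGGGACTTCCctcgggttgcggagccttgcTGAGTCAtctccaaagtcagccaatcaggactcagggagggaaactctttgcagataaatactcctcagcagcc
Cxcl12: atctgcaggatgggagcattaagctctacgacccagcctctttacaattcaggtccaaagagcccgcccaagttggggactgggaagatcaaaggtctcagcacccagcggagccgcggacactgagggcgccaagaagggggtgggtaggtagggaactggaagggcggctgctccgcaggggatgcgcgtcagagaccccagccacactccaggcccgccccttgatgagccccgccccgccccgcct

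On both strands 3 motifs were searched, chosen with the sequences in view: a kappaB-like motif (GGG and TTCC with any 3 bases between), the form bound by NF-kB; an interferon response motif (GAAA and GAAA with any 2 bases between); and the AP-1 motif TGANTCA. Of 32851 windows of the same length in the table, 4.65% held the kappaB-like motif, 2.98% the interferon response motif and 6.75% the AP-1 motif. Cxcl1 and Cxcl2 both held GGGAATTTCC, starting 71 and 97 bases before the start, which also matches on the other strand 1 base further on. The longest run common to their windows, gggaatttccctgg (14 bases), lies at that place. Each had a further kappaB-like match, GGAAACACCC on the other strand in Cxcl1 and GGGCTTTTCC in Cxcl2. Cxcl10 held the kappaB-like matches GGGAAATTCC and GGGGACTTCC, the interferon response match GAAAGTGAAA and the AP-1 match TGAGTCA, starting 159, 104, 213 and 74 bases before the start. Cxcl14 held 1 interferon response match, and Cxcl12 and Cxcr4 held none of the 3 motifs in these windows. These are matches of letters and not measured binding, and since the motifs were chosen from the sequences, nothing about the levels is read from them.

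Levels are FPKM as the authors deposited them (fragments per kilobase of transcript, scaled to the mapped total), a scale per length on which genes can be compared. In YFP, Cxcl12 made up 77.5% and 77.4% of the summed level of the 9 genes in replicates 1 and 2. Mean levels in YFP ran from Cxcl12 (162 FPKM) through Ccl11 (20.7), Cxcl1 (11.1), Cxcr4 (8.68), Ccl2 (3.46), Ccl7 (0.699 and 2.30 in its 2 libraries), Cxcl10 (1.19) and Cxcl14 (0.676) to Cxcl2, listed at 0 in both libraries. Ccl7, Cxcl10 and Cxcl14 overlapped one another in that order, and the neighbours above them did not. In DEK the order began with Cxcl1 (196 FPKM), whose values enclosed those of Cxcl12 (97.4), followed by Ccl11 (20.1). Ccl2 (7.10), Ccl7 (6.84), Cxcr4 (6.49) and Cxcl14 (5.94) had overlapping values there, and Cxcl10 (2.89) and Cxcl2 (2.60), lowest by mean, each had 1 library within the range of those 4. The share of Cxcl12 in the sum was 18.2% and 56.5% in DEK replicates 1 and 2, and that of Cxcl1 was 70.2% and 18.7%.

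**Figure D1:**
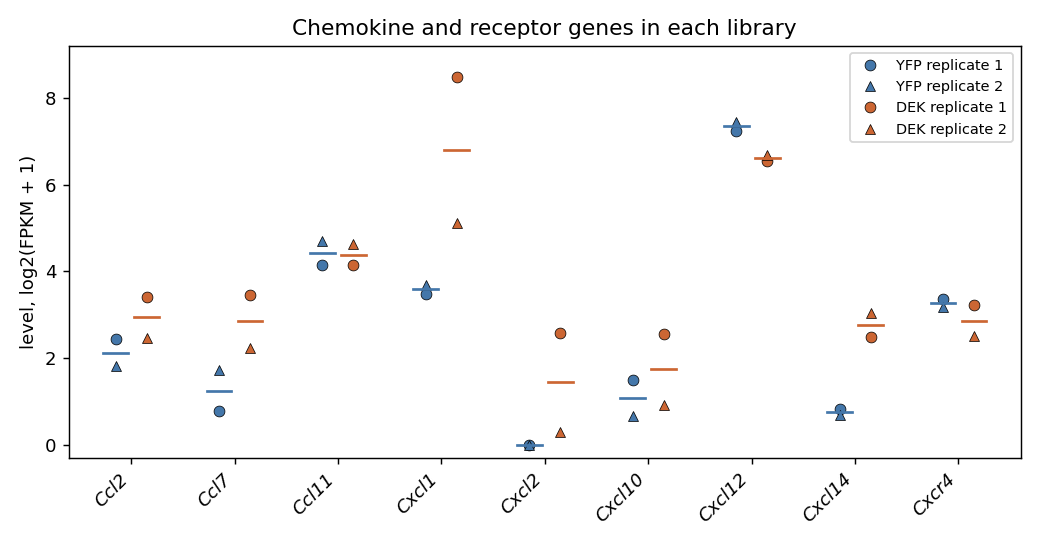
Level of each of the 9 genes in each library as log2(FPKM + 1); points are libraries (circles replicate 1, triangles replicate 2) and lines are group means (n = 2). Cxcl12 lies lower and Cxcl14 higher in DEK, and the widest gap between DEK libraries is at Cxcl1 (358 and 33.8 FPKM).

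The test was limma on log2(FPKM + 1), fitted over the 12179 genes that reached 1 FPKM in 2 or more libraries, with Benjamini-Hochberg adjustment over them; a call is an adjusted p under 0.05. Of the 9 members 8 were tested, since Cxcl2 reached 1 FPKM in only 1 library, and Cxcl14 was tested only through its DEK values. By limma 1 of the 8, Cxcl12, was called lower in DEK, against 3.21% of all tested genes. Another, Cxcl14, was called higher, where the share over all tested genes was 4.57%; because both its YFP values lay under the 1 FPKM filter it had to differ, and its call carries no weight as a count. Both DEK values lay above both YFP values in 4 of the 8 (Ccl2, Ccl7, Cxcl1 and Cxcl14), against 34.0% of all tested genes, and below in 1 (Cxcl12), against 26.9%. The median log2 fold change of the 8 was 0.74, against 0.05 over all tested genes. Cxcl14 had to lie above through the filter, so it adds no weight to the count of 4 or to the median. Over the whole table limma called 557 genes higher and 391 lower; with the ribosomal RNA precursor Rn45s removed and the columns rescaled it called 422 and 555, and the median of all genes moved from 0.05 to -0.07. Both member calls held under that and the other scalings. With all 4 libraries 948 genes were called. On the same genes limma called 115 and 69 with the first or second YFP library omitted, and 0 and 184 with the first or second DEK library omitted, where the 0 stands beside 2215 genes at an unadjusted p under 0.05. With the filter applied anew to the libraries left, the calls were 168, 83, 302 and 780 in the same order. An exact permutation test of 2 against 2 libraries cannot go below p = 0.333 for a single gene.

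Dek itself read 512 and 504 FPKM in the YFP pair, against 3196 and 1639.5 FPKM in the DEK pair (limma adjusted p = 0.0195). The defining satellite cell genes were present: the 14 on that marker list were all above 0 and summed to 2943 to 2993 FPKM in YFP and 3066 to 3932 FPKM in DEK, where 2 were called higher. For this and the lists that follow, 4.57% of all tested genes were called higher and 3.21% lower. Markers of other cell types are given by their summed levels, since many passed the filter only through DEK and their calls carry no weight. For macrophages 6 of 10 tested markers (15 listed) were called higher, all 6 tested only through DEK, with sums of 3.78 and 20.7 FPKM in YFP and 109 and 135 FPKM in DEK. Lyz2, which was not called, held most of the sum in YFP replicate 2 and in both DEK libraries. Its values were 0.200 and 15.2 FPKM in YFP and 73.4 and 100 FPKM in DEK. Adgre1, C1qa, C1qb, C1qc and Tyrobp were listed at 0 in both YFP libraries. For endothelial cells 14 of 18 tested markers (19 listed) were called higher, 12 of them tested only through DEK, with sums of 78.8 to 82.6 and 290.2 to 357 FPKM and with Kdr, Flt1, Ptprb and Erg at 0 in YFP. For fibro-adipogenic progenitors, the stromal cells of muscle, 7 of 11 tested markers (12 listed) were called higher, 4 of them (Pi16, Cd248, Smoc2 and Mfap5) tested only through DEK and at 0 in YFP replicate 2, with sums of 807 to 937 and 1286 to 1407 FPKM. Dpt (mean 388 FPKM in YFP, 686 in DEK) and Gsn (447 and 531) held most of these sums, and Gsn was not called. Pdgfra overlapped between the groups (0.814 and 2.46 FPKM in YFP, 2.09 and 5.27 in DEK). Col15a1 had a log2 fold change of -0.29, without a call. For neutrophils 1 of 5 tested markers was called higher, through DEK alone, and the sums overlapped, at 5.65 and 124 FPKM in YFP and 111 and 332 FPKM in DEK. Immediate early and dissociation response genes had 14 called higher and 1 lower of 39 tested, against 4.57% and 3.21% of all tested genes. Of the 14, 2 were tested only through DEK and carry no weight. The list summed to 2058 to 2062 FPKM in YFP, 23416 in DEK replicate 1 and 5691 in DEK replicate 2. In bulk RNA, more cells of a type and more RNA per cell cannot be told apart. The part of these genes and cells in the values of the 9 members was not tested.

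Cxcl12 and the receptor Cxcr4 form the steady, niche-holding pair. The values of Cxcl12, in the order of replicates 1 and 2, were 150.3 and 174 FPKM for YFP, against 92.7 and 102 FPKM for DEK. Both DEK values lay below both YFP values, and libraries of a group were close. The YFP mean was 162 ± 16.6 FPKM and the DEK mean 97.4 ± 6.58 (SD, n = 2 each), a log2 fold change of -0.73 (SE 0.14, 95% interval -1.08 to -0.37, limma adjusted p = 0.0403). The summed markers of fibro-adipogenic progenitors and endothelial cells, both known to make Cxcl12, were higher in the same DEK libraries. Dpt and Gsn held most of the fibro-adipogenic sum, as given above. The part of these cells in the level of Cxcl12 was not tested. Its direction held in every alternative run, but on the same genes the call was lost without any 1 of the 4 libraries (adjusted p 0.108 to 0.216). With all 4 libraries it was lost under the replicate block (limma adjusted p = 0.0635), with no low filter (0.0817) and without the variance trend (0.0672).

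Cxcr4, which on satellite cells and leukocytes receives the Cxcl12 signal, read 9.30 and 8.05 FPKM in YFP, then 8.28 and 4.70 FPKM in DEK. DEK replicate 1 lay between the YFP values and DEK replicate 2 below them, so the groups overlapped. The log2 difference for Cxcr4 was -0.41 (SE 0.27, 95% interval -1.07 to 0.25, limma adjusted p = 0.359), and -0.06 without DEK replicate 2. Ackr3, the atypical receptor that takes up Cxcl12, is in the receptor list and not among the 9. Its YFP values were 27.7 and 26.2 FPKM and its DEK values 50.6 and 57.1 FPKM, without overlap (log2 fold change 0.97, SE 0.14, limma adjusted p = 0.0206). Ackr3 was thus above Cxcr4 in each of the 4 libraries, on the FPKM scale. Its call, too, was lost on the same genes without any 1 library (log2 fold change 0.89 to 1.06). With all 4 libraries the call of Ackr3 was lost in 1 of 10 alternatives (highest limma adjusted p = 0.0518).

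**Figure D2:**
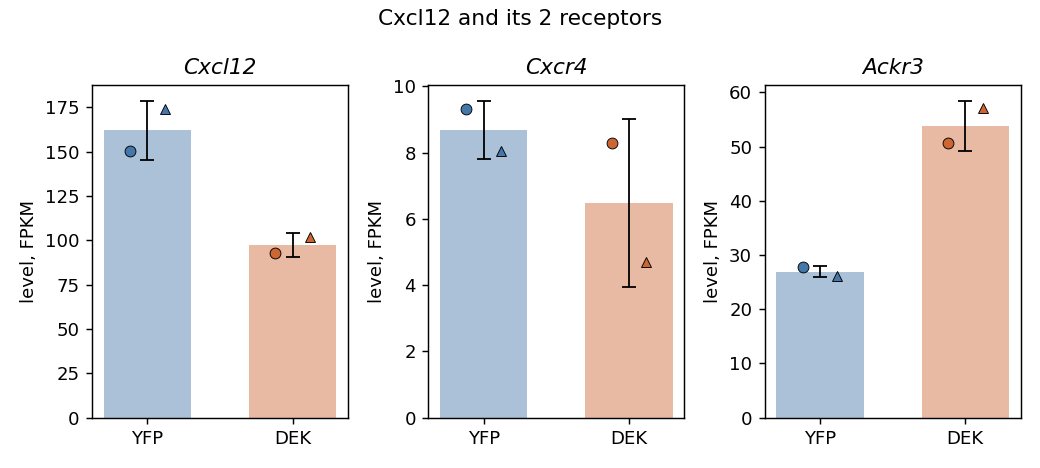
Levels in FPKM of Cxcl12, its signalling receptor Cxcr4 and its atypical receptor Ackr3; bars are means, error bars SD (n = 2 per group), points libraries. Cxcl12 is lower and Ackr3 higher in both DEK libraries, while the Cxcr4 groups overlap.

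Cxcl14, a CXC chemokine of epithelia and stroma without a settled receptor, was under the 1 FPKM filter in YFP and entered the test only through DEK. Its YFP values were 0.760 and 0.593 FPKM, and its DEK values 4.61 and 7.26 FPKM. Both DEK values lay above both YFP values, and replicate 2 was the higher DEK library. This gave a log2 fold change of 2.02 (SE 0.26, 95% interval 1.40 to 2.65, limma adjusted p = 0.0142). That p is for a gene the filter admitted by its high group, and with no low filter the adjusted p was 0.0631. On the same genes the call was lost without any 1 library, with adjusted p of 0.0756 to 0.104 and log2 fold changes of 1.74 to 2.30. Fibro-adipogenic progenitor markers, whose sums are given above, were higher in the same libraries, and their part in the value was not tested.

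The neutrophil-attracting ligands Cxcl1 and Cxcl2, which act through Cxcr2, were highest in DEK replicate 1. Cxcl1 read 10.2 and 11.9 FPKM in the YFP pair, then 358 FPKM in DEK replicate 1 and 33.8 FPKM in DEK replicate 2, so the DEK libraries differed 10.6-fold. Both DEK values lay above both YFP values, yet the spread in DEK left the difference without a call (log2 fold change 3.22, SE 0.98, 95% interval 0.81 to 5.62, limma adjusted p = 0.0995). Without DEK replicate 1 the log2 fold change was 1.53, not a call on the same genes (limma adjusted p = 0.109) but a call with the filter applied anew (0.0239). Without DEK replicate 2 it was 4.90, a call on the same genes (0.0302) and with the filter applied anew (9.85e-05). Cxcl2 was listed at 0 for both YFP libraries, so no fold is given, and reached 4.99 FPKM in DEK replicate 1 and 0.223 FPKM in DEK replicate 2. Of its 75-base stretches in GENCODE M21 transcripts, 4.57% also occur in those of Cxcl3, which was at 0.0961 FPKM in DEK replicate 1 and at 0 elsewhere; Cxcl1 shared none with another gene. Their receptor Cxcr2, listed at 0 for YFP, had DEK values of 2.90 and 3.44 FPKM and was tested only through them. The summed immediate early list was higher in DEK replicate 1 than in DEK replicate 2 as well, with the values given above. Its part in the levels of Cxcl1 and Cxcl2 was not tested.

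The monocyte-attracting ligands Ccl2 and Ccl7, which act through Ccr2, were also highest in DEK replicate 1 and did not pass the test. Ccl2 had YFP values of 4.44 and 2.49 FPKM and DEK values of 9.68 and 4.51 FPKM. The lower DEK value was only just above the higher YFP value (log2 fold change 0.82, SE 0.38, limma adjusted p = 0.213), and without DEK replicate 1 the log2 fold change was 0.34. For Ccl7 the YFP values were 0.699 and 2.30 FPKM, against 9.99 and 3.70 FPKM for DEK. Its groups did not overlap either (log2 fold change 1.60, SE 0.49, 95% interval 0.41 to 2.79, limma adjusted p = 0.0988), and its log2 fold change was 0.99 without DEK replicate 1. Ccl2 is overlapped on the other strand by Gm17268 in GENCODE M21, and whether the authors' counting used strand is not stated. Ccr2 itself, listed at 0 for YFP, had DEK values of 1.68 and 1.91 FPKM and was tested only through them. The summed macrophage and monocyte markers, mostly Lyz2 in DEK, were higher in both DEK libraries, with the values given above. The part of those cells in the levels of Ccl2 and Ccl7 was not tested.

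Ccl11 (eotaxin), which attracts eosinophils through Ccr3, was the tested member with the smallest difference. It read 16.6 and 24.8 FPKM in the YFP pair, against 16.7 and 23.6 FPKM in the DEK pair, and the ranges nearly coincided. The log2 fold change was -0.03 (SE 0.26, 95% interval -0.66 to 0.59, limma adjusted p = 0.949), an interval that leaves room for changes of either sign. Its direction turned with the library left out, from -0.31 without YFP replicate 1 to 0.25 without YFP replicate 2. Ccr3 was listed at 0 in all 4 libraries.

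Cxcl10, an interferon-induced ligand that draws T cells through Cxcr3, had YFP values of 1.80 and 0.582 FPKM and DEK values of 4.89 and 0.893 FPKM. DEK replicate 1 was the highest and DEK replicate 2 lay between the YFP libraries, so the groups overlapped (log2 fold change 0.67, SE 0.57, limma adjusted p = 0.474). Its direction turned without DEK replicate 1 (log2 fold change -0.15). Art3 overlaps Cxcl10 on the other strand in GENCODE M21 and shares 2.47% of the 75-base stretches; it stood at 6.85 to 10.4 FPKM in all libraries (log2 fold change 0.08, limma adjusted p = 0.846). Of the interferon-induced list 1 of 22 tested genes was called higher and 0 lower, against 4.57% and 3.21% of all tested genes. The median log2 fold change of the 22 was 0.44. At an unadjusted p under 0.05 by limma 8 of the 22 were higher and 1 lower, where 16.9% and 12.2% of all tested genes were. The called gene, the guanylate-binding protein Gbp4, was listed at 0 for YFP, had DEK values of 2.67 and 2.02 FPKM and was tested only through them. Rsad2, with YFP values of 0.478 and 0.541 FPKM and DEK values of 1.57 and 1.42 FPKM, was also tested only through DEK. Gbp4 and Rsad2 are among the 8 and had to be higher, so the contrast with 16.9% is partly fixed by the filter.

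**Figure D3:**
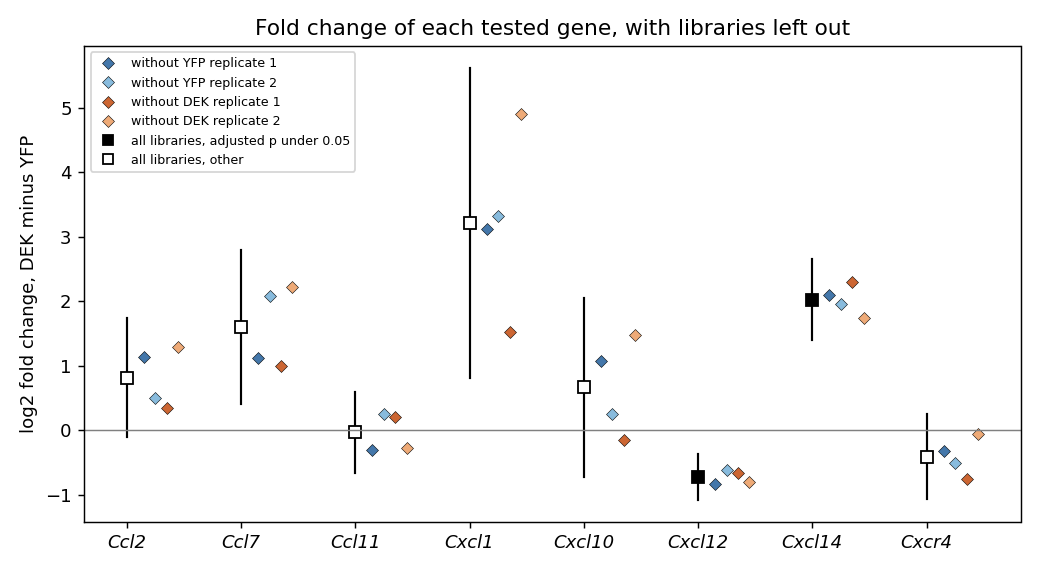
Log2 fold change (DEK minus YFP, log2(FPKM + 1) scale) of the 8 tested members; squares are the fit on all 4 libraries with its 95% interval, filled where the adjusted p is under 0.05, and diamonds the fit with 1 library left out. Cxcl12 stays below 0 and Cxcl14 above it in each fit, and Cxcl1 runs from 1.53 to 4.90.

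Of all 9 members, 6 were higher in DEK replicate 1 than in DEK replicate 2 (Ccl2, Ccl7, Cxcl1, Cxcl2, Cxcl10 and Cxcr4), and in 5 of them, all but Cxcr4, by more than 2-fold. Ccl11, Cxcl12 and Cxcl14 were higher in DEK replicate 2. In YFP, 4 of the 9 were higher in replicate 1. NF-kB target and feedback genes had 2 of 18 tested members called higher, Il1b and Birc3, and 0 lower (median log2 fold change 0.32). Over all tested genes 4.57% were called higher and 3.21% lower. Il1b was tested only through DEK, so its call carries no weight. At an unadjusted p under 0.05 by limma 7 of the 18 were higher and 1 lower, against the same 16.9% and 12.2%. Il1b is among the 7 and had to be higher through the filter. Their sums were 524 and 528 FPKM in YFP, 778 in DEK replicate 1 and 565 in DEK replicate 2. The cytokine Il1b, listed at 0 for YFP, had 2.87 FPKM in DEK replicate 1 and 6.62 FPKM in DEK replicate 2, the other order than Cxcl1. Birc3, an inhibitor of apoptosis, went from 2.70 ± 0.551 to 7.75 ± 0.193 FPKM (SD, n = 2 each; log2 fold change 1.25, limma adjusted p = 0.0257). On the same genes Il1b and Birc3 lost their calls without any 1 library. Nr4a1 and Fosb, the immediate early genes of smallest p, had log2 fold changes of 4.999 and 3.99.

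Beyond the 9 members the table held 54 other chemokine ligand and receptor genes, of which 16 were tested. With the members, 63 genes were in the table, 5 were at 0 in all libraries, 24 were tested, 8 were called higher and 1 lower. Over all tested genes 4.57% were called higher and 3.21% lower. Of the 8 called higher, 7 had been tested only through their DEK values and so had to differ, which leaves their count without weight; Ackr3 was the exception. The ligands Ccl6 (7.54 and 9.26 FPKM), Ccl9 (1.52 and 1.05 FPKM) and Ccl21a (1.59 and 3.97 FPKM), and the myeloid receptors Ccr1 (1.09 and 1.15 FPKM), Ccr2 and Cxcr2, were listed at 0 for both YFP libraries, and the values given are DEK replicate 1, then 2 (limma adjusted p = 0.00336 for Ccl6 to 0.0394 for Ccr1). With no low filter Ccl6, Ccr1, Ccr2 and Cxcr2 were called (adjusted p = 0.0373 each) and Ccl9 and Ccl21a were not. Without DEK replicate 1, on the same genes, each of these 6 lost its call; without any other single library Ccl6 kept its call and the other 5 did not. Ccl6 and Ccl9 are best known from myeloid cells, whose markers have the sums given above. The part of those cells in the values of Ccl6 and Ccl9 was not tested. Ccl21a shares 61.3% of its 75-base stretches with Ccl21b and other copies, so its values are uncertain. Ccl21b, which was not tested, went the other way, with 0.744 and 1.21 FPKM in YFP and 0.334 and 0.605 FPKM in DEK.

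Another 6 genes of the family reached 5 FPKM in a library and were not called. Cx3cl1, a membrane-bound chemokine, had YFP values of 16.3 and 19.4 FPKM and DEK values of 26.6 and 31.3 FPKM, without overlap (log2 fold change 0.67, SE 0.17, limma adjusted p = 0.0684). Cxcl16, another membrane-bound ligand, had a change of 0.30 on the log2 scale (limma adjusted p = 0.395) and Ccl19, a lymphoid ligand, 0.56 (adjusted p = 0.122). Ccl27a had -0.02 (adjusted p = 0.950) and the decoy-like receptor Ccrl2 0.23 (adjusted p = 0.714). Ccl8, a monocyte attractant like Ccl2 and Ccl7, was listed at 0 for YFP. It had 6.71 FPKM in DEK replicate 1 and 1.04 FPKM in DEK replicate 2, without a call (limma adjusted p = 0.0938). Ccl8 was tested only through DEK and had to lie above YFP, so that p carries no weight. Ccl19 and Ccl27a share 45.3% and 33.3% of their 75-base stretches with copies of themselves, and Cxcl16 15.4% with Zmynd15, so reads could be split between them.

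**Figure D4:**
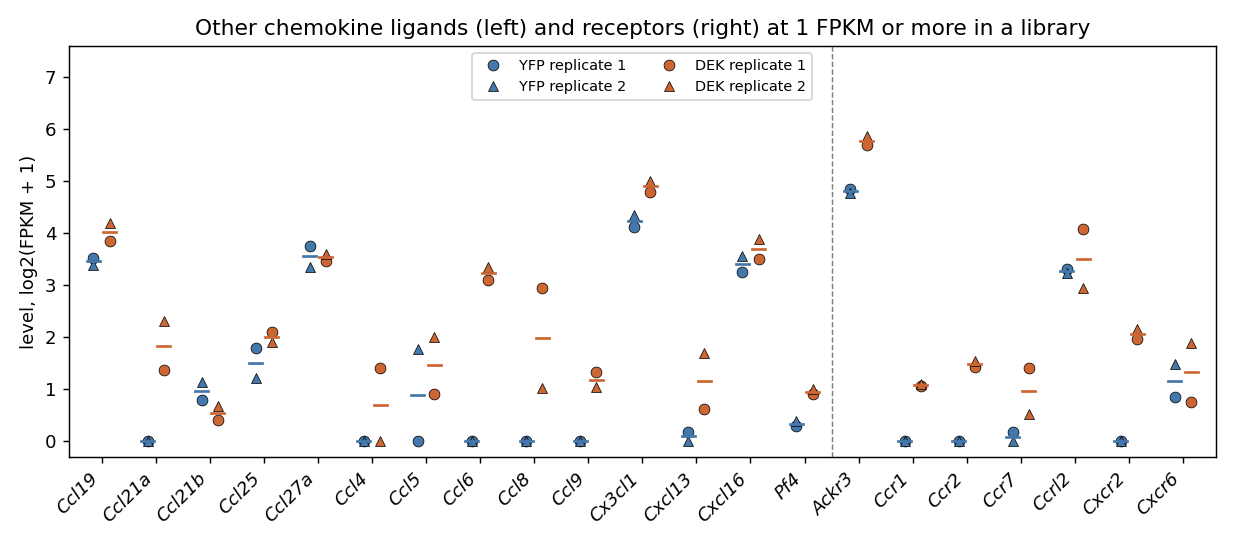
Levels as log2(FPKM + 1) of the other chemokine ligands (left of the dashed line) and receptors (right) that reach 1 FPKM in a library; points are libraries and lines group means (n = 2). Ackr3 is the most abundant of them, and Ccl6, Ccl8, Ccl9, Ccl21a, Ccr1, Ccr2 and Cxcr2 are at 0 in both YFP libraries and above 0 in both DEK libraries.

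Of 31 tested genes that carry or handle the chemokine signal (39 listed), 4 were called higher and 0 lower in DEK. Over all tested genes the shares were 4.57% and 3.21%. The median log2 fold change of the 31 was -0.07. Rgs2, which speeds the turning off of G proteins, had YFP values of 46.6 and 38.7 FPKM and DEK values of 188 and 104 FPKM (log2 fold change 1.70, limma adjusted p = 0.0280). The cytokine Mif, which also binds Cxcr4, had a change of 0.78 on the log2 scale (limma adjusted p = 0.0382), and its surface partner Cd74, also a gene of antigen-presenting cells, 4.48 (adjusted p = 0.0287). Rac2, a small GTPase of blood cells, had 1.67 (limma adjusted p = 0.0323). Because Rac2 was tested only through DEK it had to be higher, and it adds no weight to the count of 4. At an unadjusted p under 0.05 by limma 5 of the 31 were higher and 5 lower, near the 16.9% and 12.2% of all tested genes. On the same genes Mif and Rac2 lost their calls without any 1 library, Rgs2 without any but DEK replicate 2, and Cd74 without either DEK library.

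By the distance between values of log2(FPKM + 1) in the 4 libraries, each gene centred on its own mean, the tested genes closest to Ccl2 were Myd88, Fam84b and Mterf1b (distance 0.18 to 0.21). Those closest to Cxcl12 were Fhod1, Slc19a2 and Trim41 (0.04 to 0.05), and those closest to Cxcr4 were Zfyve1, Morn4 and Rap2b (0.08 to 0.12). With only 4 libraries such closeness is a description only.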

How the data were processed

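The submitters' processing notes name STAR 2.5.3a and StringTie 1.3.3, with R 3.4.1 and genome build mm9; annotation, filters and strand use are not given in the sources used here. The deposited table holds 1 value per symbol and library, taken as FPKM computed by the authors; that unit is inferred from values that are not whole and from column totals of 541183 to 545123 that differ. All 4 columns were used and 0 left out. Depth is unknown, so no counting intervals are given.

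Values were tested as log2(FPKM + 1) with limma 3.58.1 in R 4.3.3 (empirical Bayes with a variance trend, no covariates, two-sided) on all 12179 genes that reached 1 FPKM in 2 or more libraries (12149 were not tested), with Benjamini-Hochberg adjustment and calls at an adjusted p under 0.05. Fold changes on this scale understate low genes, and none is given where a group is listed at 0, although list medians include such genes. The code was tested on simulated data.

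The 9 members, the gene lists (written from general knowledge), the rule for named genes and the motifs were chosen with earlier results of these data known. Named were the members, ligand and receptor genes called or at 5 FPKM in a library, and the called genes of smallest p in the other lists (up to 4 for signalling genes, up to 2 for each response list). Other gene names outside that rule (Cxcl3, Ccl21b, Art3, Gm17268, Zmynd15, Ccr3, Rsad2, Dek and markers) are given only as paralogs, overlaps, receptors, label checks or list contents. Other lists examined were lymphocyte (0 of 1 tested genes called), pericyte and smooth muscle (2 of 12 higher), mature myofibre (1 of 8 lower) and erythroid (2 of 5 higher) markers. Of all tested genes 4.57% were called higher and 3.21% lower. The 2 erythroid calls and 1 of the pericyte calls were tested only through DEK. Lymphocyte markers summed to 2.11 and 3.45 FPKM in YFP and 9.55 and 7.75 in DEK. Erythroid markers summed to 8.04 and 0.527 FPKM in YFP and 39.4 and 357 in DEK. Alternatives were each library left out (on the same genes, or with the low filter applied to the 3 remaining), a replicate block, 0.1 or 5 in place of the added 1, no low filter or one of 5 FPKM, TMM (trims of 30 and 5%), quantile normalization, removal of the ribosomal RNA precursor Rn45s with rescaling, no trend and robust estimation. Count-based tools were not run because the values are not counts. Promoter windows came from RefSeq (GRCm38.p6) and shared 75-base stretches (the read length) and overlaps from GENCODE M21; no coordinates were joined to the mm9 values.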

Additional observations from a re-analysis of the deposited data

How the results depend on the processing

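Of 136 refits of the 8 tested members, 110 kept direction and side of the threshold, 17 lost a call, 4 gained one and 5 turned; most of the 110 were members without a call that stayed so. Cxcl12 lost its call in 7 of 8 refits with a library left out and in 3 of 10 others, and Cxcl14 in 6 of 6 and in 1 of 9. For 22 other named genes 257 of 367 did, 102 lost a call, 2 gained one and 6 turned. With all libraries limma called 1 member higher, 1 lower, 8 family genes (ligands and receptors) higher, 1 lower, and 948 genes in all. Each library was first left out with the genes tested held fixed; the spread of the single library remaining in a group is then taken from the other group. The members called were then 0 to 1 higher and 0 lower, the family genes 0 to 3 higher and 0 lower, and all genes 0 to 184. Log2 fold changes ran from -0.83 to -0.62 for Cxcl12, 1.74 to 2.30 for Cxcl14, 1.53 to 4.90 for Cxcl1, 0.99 to 2.21 for Ccl7, 0.34 to 1.29 for Ccl2, -0.31 to 0.25 for Ccl11, -0.15 to 1.48 for Cxcl10 and -0.76 to -0.06 for Cxcr4. Directions turned for Ccl11 (0.25 without YFP replicate 2, 0.21 without DEK replicate 1), Cxcl10 (-0.15 without DEK replicate 1), Ccl27a (0.17 without YFP replicate 1, 0.040 without DEK replicate 1; range -0.22 to 0.17) and Ccrl2 (-0.34 without DEK replicate 1; range -0.34 to 0.81).

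When genes were also filtered anew on the 3 libraries left, fold changes stayed the same and fewer genes were tested. In the order of leaving out the first and second YFP and the first and second DEK library, the calls were then 168, 83, 302 and 780 genes, 2, 1, 2 and 3 family genes higher and 0, 0, 0 and 1 lower, 0, 0, 1 and 2 members higher and 0, 0, 0 and 1 lower. Cxcl12 was called there only without DEK replicate 2 (-0.80, adjusted p = 0.0367) and had -0.83, -0.62 and -0.66 otherwise; Cxcl14 had 2.10 and 1.95 without a YFP library, not called, and was not tested without a DEK library. Cxcl1 was called without DEK replicate 1 (1.53, adjusted p = 0.0239) and without DEK replicate 2 (4.90, adjusted p = 9.85e-05), and Ccl7 without DEK replicate 2 (2.21, adjusted p = 0.0373).

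With the replicate number as a block limma called 618 genes, 1 member higher and 0 lower, and 6 family genes higher and 0 lower; Cxcl12 (-0.73) had an adjusted p of 0.0635. The numbers are not shown to pair the libraries: the labels name no shared animal or batch, there are only 2 pairs, and the deviations of equally numbered libraries correlated at 0.06 across genes. With no low filter 293 genes were called, 0 members (2 at an unadjusted p under 0.05), and 5 family genes higher and 0 lower; Cxcl12 (-0.73, adjusted p = 0.0817) and Cxcl14 (2.02, adjusted p = 0.0631) lost their calls. At 5 FPKM 0 members were called higher, since Cxcl14 was not tested, and 2 family genes were. With 5 added, 5 family genes were called higher. Without the variance trend 0 members and 0 family genes were called lower (Cxcl12 -0.73, adjusted p = 0.0672). In each case except the 5 FPKM filter, where fewer genes were tested, the cause was not tested. Over all alternatives the adjusted p ran from 0.0269 to 0.216 for Cxcl12 and from 0.0103 to 0.104 for Cxcl14. Depth per library is unknown, and the low levels of Cxcl2, Cxcl10 and Cxcl14 limit what can be said of them.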
